A study of Homo sapiens with 9 samples.

Results

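The collagen genes and the enzymes that modify collagen were followed through 3 human breast epithelial cell lines that stand for successive stages of tumour progression. The 39 listed genes comprise 27 collagen chains and 12 genes for prolyl and lysyl hydroxylases, lysyl oxidases and the collagen chaperone SERPINH1. A gene was taken as a member when a probe set of the array was annotated to its symbol alone, and the probe set with the highest mean signal over all 9 arrays stood for the gene. By this rule 38 of the 39 genes were measured, among 19775 genes on the array, and COL17A1 was not analysed here. Of the 38, 31 passed a filter on dim signals, which required at least 3 of the 9 arrays above the median of all values (69.3 signal units), and were tested.

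All 3 lines derive from MCF-10A, a non-tumorigenic line of human breast epithelium, through cells carrying an activated HRAS oncogene. MII is MCF-10AT1Kcl2, labelled as carcinoma in situ. MIII is MCF-10A1h, labelled as carcinoma, and MIV is MCF-10A1a, labelled as metastatic carcinoma. Each line was hybridised to 3 arrays described as biological replicates, with no statement that they came from separate cultures, so the p-values measure the spread between these samples, which may be technical. Each stage is represented by 1 line, so that line and stage cannot be told apart. All lines were grown in the same medium, which held EGF at 20 ng/ml, hydroxycortisone at 0.5 µg/ml, cholera toxin at 0.1 µg/ml and insulin at 10 µg/ml, together with 5% horse serum and 1% penicillin/streptomycin. The comparisons ask how the expression of this gene group differed from MII to MIII, from MIII to MIV, and between MII and MIV.

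Collagens are secreted proteins of 3 chains wound into a triple helix. Inside the cell prolyl and lysyl hydroxylases modify the chains and the chaperone SERPINH1, also called HSP47, binds the folded helix, and outside the cell lysyl oxidases start the cross-links that join the molecules. In breast tissue the fibril-forming collagens and collagen VI are made mainly by stromal fibroblasts, whereas epithelial cells lie on a basement membrane built around collagen IV.

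The arrays had been scaled to a common mean before deposit. Median signals were 69.0 to 71.7 in MII, 72.1 to 74.9 in MIII and 64.7 to 65.2 in MIV, and these ranges did not overlap. Markers of epithelium were present in each line. All 7 epithelial markers had line means above the pooled median in MII and MIV, and 6 of 7 did in MIII, where CLDN7, a tight junction protein, lay below it on every array. Their summed signal ran from 119393 to 125097 in MII, from 65795.5 to 66870.9 in MIII and from 118516 to 128370 in MIV.

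As a group the members were highest in MIII. Between MII and MIII, 16 of the 31 tested members rose and 1, LOXL4, fell; of all 12594 genes tested 6.17% rose and 5.55% fell in the same comparison. Between MIII and MIV, 17 members fell and 1, again LOXL4, rose; over all genes tested 7.79% fell and 4.95% rose. Between MII and MIV, COL13A1 and COL18A1 rose and COL9A3 fell, against 2.96% of all genes tested that rose and 5.18% that fell. A gene was called when its limma adjusted p lay under 0.05 and its signal differed at least 2-fold, and "rose" and "fell" are used of called genes alone. The comparisons share arrays, since the MIII arrays enter both of the first 2, so their counts are not independent of each other.

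Over the 38 measured members, filtered or not, the median log2 change was 0.82 from MII to MIII, -0.83 from MIII to MIV and 0.024 from MII to MIV. The corresponding medians over all 19775 genes were -0.0013, -0.0305 and -0.0295. These changes are on a scale of log2(signal + 18.3), where the offset is the 25th percentile of all values, and the scale understates the change of dim genes. COL3A1, COL6A2 and COL6A3 were above the filter's level on the MIII arrays alone, and COL5A3, COL27A1 and COL6A1 on fewer than 3 arrays outside MIII. These members passed the filter only because they were high in MIII and so had to differ there, and the counts of tested members give no support of their own for that reason.

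**Figure D1:**
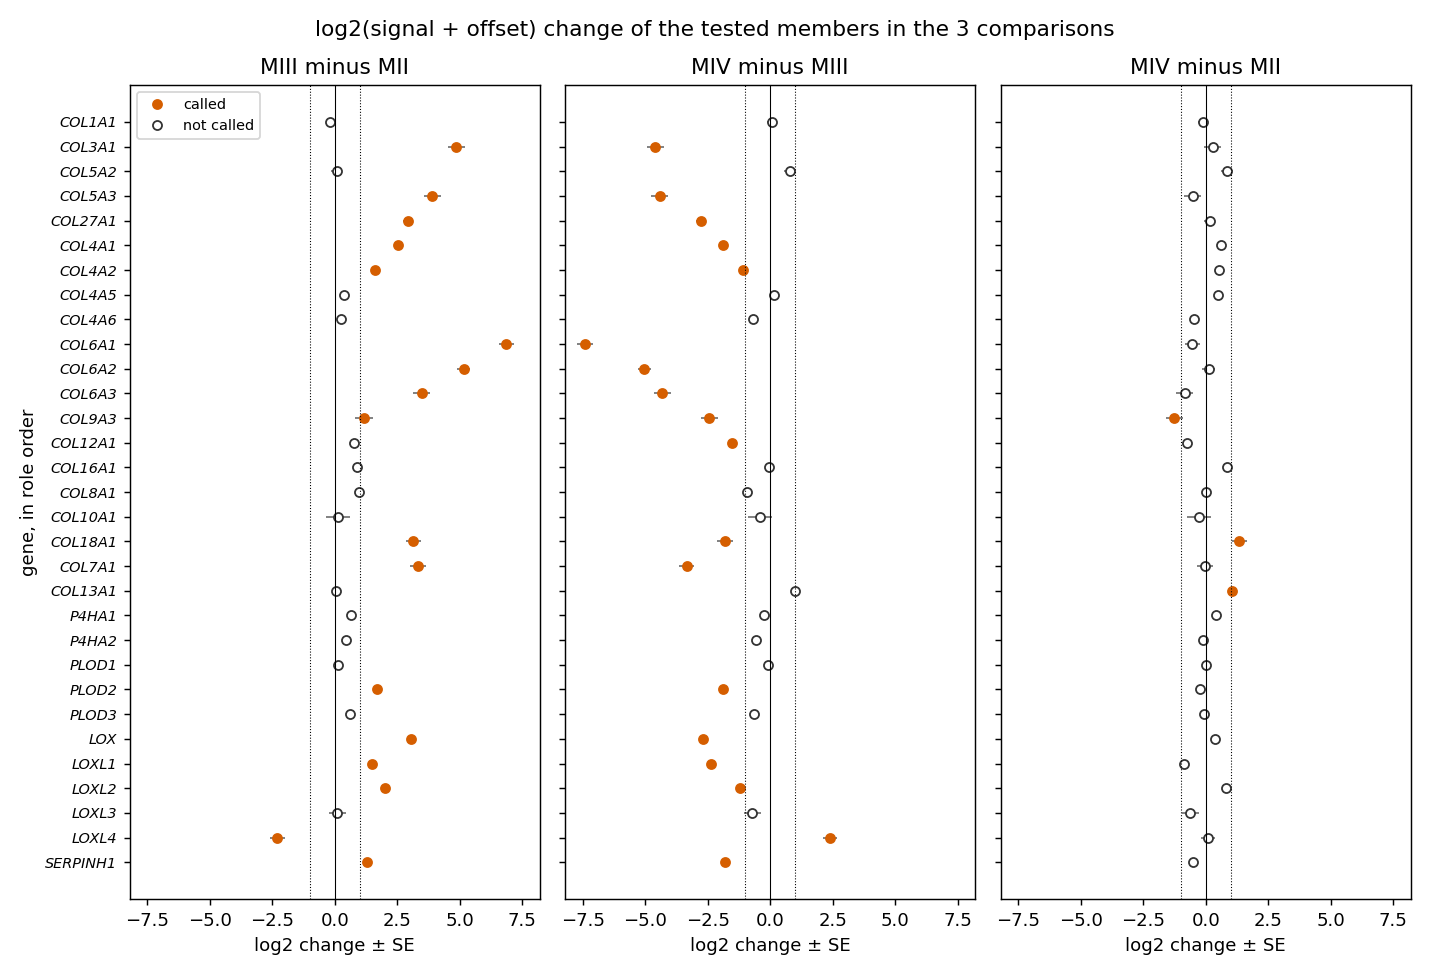
Change of each tested member in the 3 comparisons, as the difference in log2(signal + 18.3) with its standard error; filled points are called and the dotted lines mark a 2-fold change. Most called members lie to the right from MII to MIII and to the left from MIII to MIV, LOXL4 lies on the opposite side in both, and from MII to MIV the points gather around 0.

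Of the 8 fibril-forming collagens measured, 5 were tested. COL3A1, COL5A3 and COL27A1 rose in MIII and fell again in MIV, whereas COL1A1 and COL5A2 did neither. The former 3 passed the filter only because they were high in MIII, so this division gives no support of its own. Over all 8 the median log2 change from MII to MIII was 0.36, against 2.93 over the 5 tested. COL3A1, the chain of collagen III, gave signals of 3.6, 1.7 and 9.2 in MII, 623.3, 701.1 and 633.2 in MIII and 2.0, 5.1 and 26.7 in MIV. The signal was thus far above the array median on every MIII array and far below it on every other one. Its log2 change was 4.87 ± 0.34 (SE, n = 3 arrays per line, limma adjusted p = 4.17e-08) from MII to MIII and -4.59 ± 0.34 (limma adjusted p = 7.06e-08) from MIII to MIV. Between MII and MIV, COL3A1 differed by 0.28 ± 0.34 (limma adjusted p = 0.555), within the spread of the arrays.

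COL5A3, a chain of the collagen V family that forms fibrils with other chains, followed the same course. It read 20.4, 15.1 and 72.3 in MII, 700.1, 780.2 and 662.3 in MIII and 14.0, 24.0 and 10.9 in MIV, with no overlap between MIII and the other lines. The log2 change was 3.90 ± 0.34 (limma adjusted p = 3.92e-07) into MIII and -4.42 ± 0.34 (limma adjusted p = 1.02e-07) out of it. COL27A1, a fibrillar collagen best known from cartilage, read 67.8, 36.1 and 54.6 in MII, 477.5, 496.2 and 575.8 in MIII and 54.1, 56.3 and 69.4 in MIV. Again the 3 MIII arrays stood alone, and the log2 changes were 2.93 ± 0.22 (limma adjusted p = 7.28e-08) and -2.77 ± 0.22 (limma adjusted p = 1.2e-07).

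The COL1A1 chain of collagen I, the chief collagen of connective tissue, showed no such peak with its brightest probe set. Signals were 264.6, 205.0 and 260.0 in MII, 210.4, 175.8 and 254.0 in MIII and 250.4, 182.9 and 234.2 in MIV, and the 3 lines overlapped. The log2 change from MII to MIII was -0.18 ± 0.18 (limma adjusted p = 0.431). A pair of dimmer COL1A1 probe sets did not follow it: they gave 1.25 ± 0.22 (limma adjusted p = 0.000967 over all probe sets) and 1.62 ± 0.44 (limma adjusted p = 0.0161 over all probe sets) from MII to MIII. From MIII to MIV the same pair gave -1.19 (limma adjusted p = 0.0012 over all probe sets) and -0.91 (limma adjusted p = 0.166 over all probe sets). COL1A1 is therefore a gene whose call rests on the choice of probe set. COL1A2, the partner chain of collagen I, was too dim to test, with signals of 10.5 to 62.1 over all 9 arrays.

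COL5A2, which pairs with COL5A1 in collagen V, was the one tested fibril-forming member with its highest mean in MIV. It read 127.2, 148.3 and 115.7 in MII, 113.5, 154.4 and 149.0 in MIII and 304.1, 169.0 and 298.5 in MIV, so that each MIV array lay above all the others, replicate 2 by a small margin. The log2 difference of MIV from MIII was 0.78 ± 0.22 (limma adjusted p = 0.00967), short of 2-fold, and without MIV replicate 2 it was 1.03 and passed. A dimmer COL5A2 probe set gave 0.37 (limma adjusted p = 0.591 over all probe sets), and its MIV arrays overlapped those of both other lines. COL5A1 and COL11A1 were not tested; the COL5A1 signals ran from 3.7 to 97.5 and those of COL11A1 from 1.4 to 44.2.

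**Figure D2:**
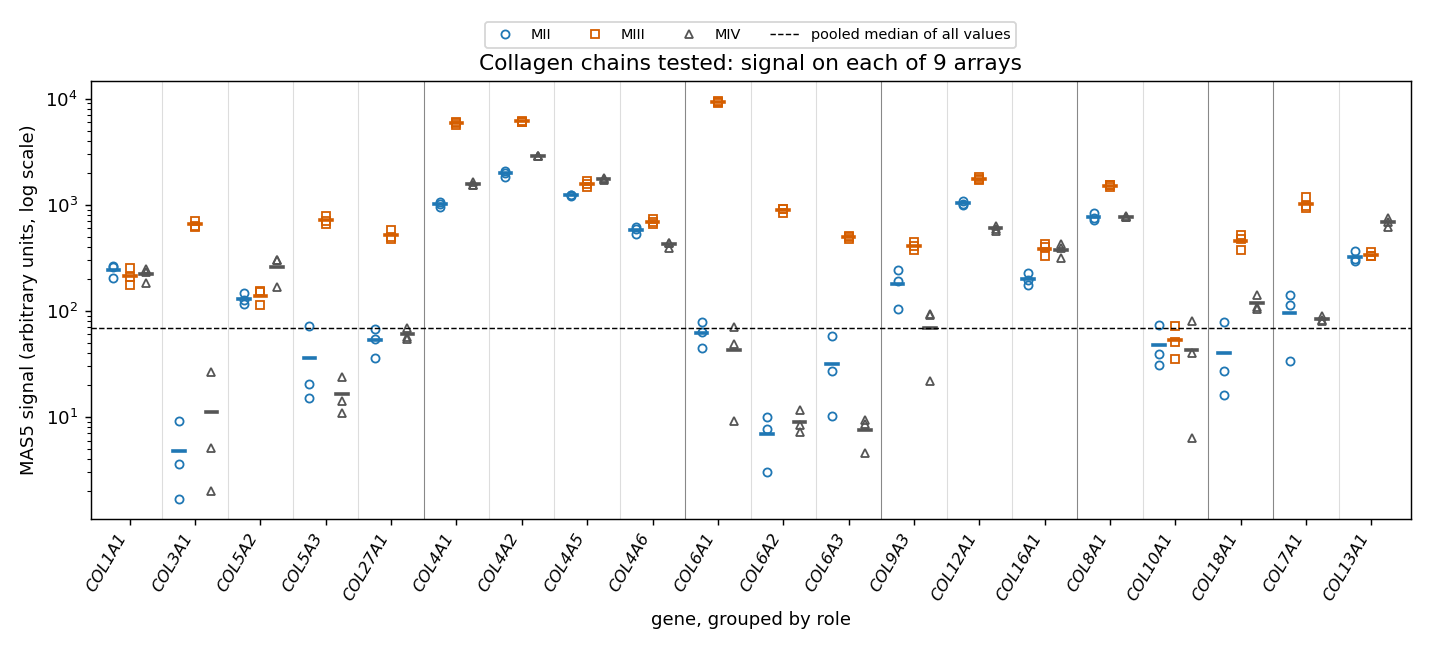
Signal of each tested collagen chain on each of the 9 arrays, on a log axis, grouped by type, with a bar at the mean of each line and a dashed line at the pooled median of 69.3. The MIII squares of COL3A1, COL5A3, COL27A1, COL6A1, COL6A2, COL6A3 and COL7A1 stand apart above both other lines, while COL5A2 and COL13A1 are highest in MIV.

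The 4 tested chains of collagen IV, the network-forming collagen of basement membranes, were above the pooled median on all arrays of all lines. COL4A1 and COL4A2, which assemble together into the common form of collagen IV, rose in MIII and fell in MIV, and their paralogues COL4A5 and COL4A6 did neither. COL4A1 read 962.2, 1057.0 and 1008.1 in MII, 5933.3, 5691.6 and 5990.6 in MIII and 1537.5, 1536.7 and 1631.3 in MIV. With this probe set the lines were separated throughout, with MII lowest, MIV between and MIII highest. Log2 changes of COL4A1 were 2.52 ± 0.06 (limma adjusted p = 5.1e-13) from MII to MIII and -1.89 ± 0.06 (limma adjusted p = 9.55e-12) from MIII to MIV. MIV remained above MII by 0.63 ± 0.06 (limma adjusted p = 1.44e-06), which is short of 2-fold. A dimmer COL4A1 probe set gave 0.22 (limma adjusted p = 0.214 over all probe sets) for MIV against MII, where its arrays overlapped.

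COL4A2 showed the same order of lines. Its signals were 2079.6, 1830.1 and 2003.5 in MII, 6052.9, 6172.6 and 6075.7 in MIII and 2855.8, 2890.2 and 2904.7 in MIV. It changed by 1.62 ± 0.06 (limma adjusted p = 2.47e-11) and then by -1.08 ± 0.06 (limma adjusted p = 1.62e-09) on the log2 scale. COL4A5, an X-linked chain of other collagen IV networks, had line means of 1224, 1577 and 1747 in MII, MIII and MIV and changed by 0.36 ± 0.06 (limma adjusted p = 0.000378) from MII to MIII. COL4A6 had means of 583, 694 and 422 and differed by -0.69 ± 0.10 (limma adjusted p = 3.41e-05) between MIII and MIV. Both are below 2-fold in all 3 comparisons, and with its brightest probe set COL4A6 was lowest in MIV, where COL4A5 was highest. Another COL4A6 probe set gave -0.69 (limma adjusted p = 0.0241 over all probe sets) between MIII and MIV. The dimmest gave 0.54 (limma adjusted p = 0.128 over all probe sets) and was highest in MIV, so the contrast with COL4A5 depends on the probe set.

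COL4A1 and COL4A2 lie head to head, and so do COL4A6 and COL4A5, so that each pair shares the stretch between its start sites. The whole stretch between the annotated starts of COL4A1 and COL4A2 and the 250 bases before the COL4A5 start are shown because the first pair moved together and the second pair did not move 2-fold. They are RefSeq sequence of GRCh38.p14, at chr13:110307158-110307283 and chrX:108439588-108439837 on the plus strand, and capitals mark the letters GGGCGG (the GC box) and CCAAT (the CCAAT box) on either strand.
COL4A1-COL4A2: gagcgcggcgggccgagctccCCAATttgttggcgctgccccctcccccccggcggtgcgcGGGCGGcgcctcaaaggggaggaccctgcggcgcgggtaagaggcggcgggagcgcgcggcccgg
COL4A5: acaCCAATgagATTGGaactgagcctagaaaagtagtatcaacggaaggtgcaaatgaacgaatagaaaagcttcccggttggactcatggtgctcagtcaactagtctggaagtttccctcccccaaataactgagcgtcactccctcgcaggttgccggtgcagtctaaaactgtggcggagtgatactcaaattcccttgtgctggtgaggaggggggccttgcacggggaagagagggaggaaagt

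The 126 bases between COL4A1 and COL4A2 hold 1 GC box and 1 CCAAT box. The COL4A5 stretch holds 2 CCAAT boxes in opposite directions and 0 GC boxes. It covers 250 of the 379 bases between COL4A6 and COL4A5, so the stretches shown differ in length and are not compared. Of all 35116 promoter windows, 34.6% held a GC box and 21.1% a CCAAT box in the 126 bases before the start. In the 250 bases before it, 42.6% held a GC box and 32.0% a CCAAT box. Over the 40 windows of the 29 members with a RefSeq promoter entry, each with 250 bases before the start and 50 after, 57.5% held a GC box against 45.0% of all windows, and 32.5% a CCAAT box against 34.6%. A match describes the letters and is not evidence of a bound site.

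Collagen VI forms beaded filaments next to basement membranes, and COL6A1 had the largest log2 change of the tested members. COL6A1, COL6A2 and COL6A3 build the common collagen VI molecule, and all 3 rose in MIII and fell in MIV. All 3 passed the filter only because they were high in MIII. COL6A1 read 63.8, 44.2 and 78.1 in MII, 8996.9, 9455.3 and 9371.6 in MIII and 49.0, 9.1 and 70.9 in MIV. The MIII arrays were thus bright, while those of MII and MIV lay near or below the pooled median. The log2 change was 6.88 ± 0.32 (limma adjusted p = 5.6e-10) from MII to MIII and -7.41 ± 0.32 (limma adjusted p = 2.43e-10) from MIII to MIV, while MII and MIV differed by -0.53 ± 0.32 (limma adjusted p = 0.207).

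COL6A2, the neighbour of COL6A1 on chromosome 21 with no protein-coding gene between them, read 10.1, 7.7 and 3.0 in MII, 914.5, 828.0 and 908.9 in MIII and 8.4, 11.6 and 7.2 in MIV. On the arrays of MII and MIV it was therefore near the bottom of the signal range. Its log2 changes were 5.17 ± 0.26 (limma adjusted p = 1.31e-09) and -5.04 ± 0.26 (limma adjusted p = 1.51e-09). A second COL6A2 probe set gave 0.83 from MII to MIII and -0.46 from MIII to MIV and was called in neither.

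COL6A3, the largest of the common collagen VI chains, read 58.6, 10.2 and 26.9 in MII, 509.5, 479.5 and 501.6 in MIII and 8.6, 9.4 and 4.6 in MIV. It changed by 3.48 ± 0.34 (limma adjusted p = 1.25e-06) and by -4.32 ± 0.34 (limma adjusted p = 1.28e-07). As for COL6A2, every array of MII and MIV lay below the pooled median. COL3A1 and COL5A2, by contrast, are also neighbours, on chromosome 2, and of that pair COL3A1 alone was called.

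The fibril-associated collagens sit on the surface of fibrils rather than forming them, and they behaved less uniformly. COL9A3, a chain of collagen IX, rose in MIII and fell in MIV to below its MII level. It read 240.7, 103.1 and 192.0 in MII, 407.0, 443.0 and 375.8 in MIII and 92.7, 92.0 and 21.9 in MIV. MII replicate 2 stood near the MIV arrays, though no array overlapped between lines. Log2 changes of COL9A3 were 1.18 ± 0.36 (limma adjusted p = 0.0142) from MII to MIII, -2.43 ± 0.36 (limma adjusted p = 5.76e-05) from MIII to MIV and -1.25 ± 0.36 (limma adjusted p = 0.0121) from MII to MIV. Without MII replicate 2 the first was 0.87 (limma adjusted p = 0.0709), and without MII replicate 1 or MIV replicate 3 the last was -1.02 (limma adjusted p = 0.0554) or -0.76, so these calls rest on single arrays.

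COL12A1, a large collagen found on fibrils under tension, read 1090.3, 1013.9 and 985.6 in MII, 1743.4, 1723.8 and 1818.1 in MIII and 633.6, 568.2 and 594.4 in MIV. The lines did not overlap, and MIV was the lowest. It fell by 1.53 ± 0.07 (limma adjusted p = 8.2e-10) on the log2 scale from MIII to MIV. The change from MII to MIII was 0.76 ± 0.07 (limma adjusted p = 1.17e-06) and that from MII to MIV -0.76 ± 0.07 (limma adjusted p = 1.85e-06), both short of 2-fold. The next brightest COL12A1 probe set gave -0.05 (limma adjusted p = 0.864 over all probe sets) from MII to MIII and -1.17 from MII to MIV. Dimmer ones that passed the filter gave 0.73 and 0.20 from MII to MIII. COL16A1 had the other pattern, with means of 200, 385 and 376 in MII, MIII and MIV; MIII and MIV differed by -0.03 ± 0.15 (limma adjusted p = 0.881). MIV exceeded MII by 0.85 ± 0.15 (limma adjusted p = 0.000515) in COL16A1, short of 2-fold. COL14A1, with signals of 22.5 to 52.9, and COL21A1, with signals of 1.3 to 45.6, were too dim to test.

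Of the short-chain collagens, COL8A1, a network former of vessel and eye membranes, came close to the threshold. It read 751.9, 719.3 and 830.2 in MII, 1519.6, 1467.5 and 1518.4 in MIII and 789.1, 761.4 and 773.4 in MIV, with MIII above every other array. The log2 differences of 0.95 ± 0.07 (limma adjusted p = 1.37e-07) and -0.94 ± 0.07 (limma adjusted p = 1.53e-07) fell just short of 2-fold, so COL8A1 was not called. COL10A1, the collagen of hypertrophic cartilage, had signals from 6.4 to 81.1 that overlapped in all lines.

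COL18A1, the basement membrane collagen whose C-terminal fragment is endostatin, read 77.8, 27.0 and 16.0 in MII, 376.9, 522.9 and 473.9 in MIII and 140.6, 103.8 and 108.9 in MIV. MIV thus lay between the other lines, above every MII array. The log2 change was 3.15 ± 0.31 (limma adjusted p = 1.55e-06) from MII to MIII, -1.80 ± 0.31 (limma adjusted p = 0.00025) from MIII to MIV and 1.35 ± 0.31 (limma adjusted p = 0.00331) from MII to MIV. The second COL18A1 probe set gave 1.89, -1.39 and 0.50, and was not called for the last. COL15A1, the other collagen of this type, read 47.4, 32.4 and 75.9 in MIII and at most 13.4 on the arrays of MII and MIV, and was not tested.

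COL7A1, the anchoring fibril collagen that fastens epithelium to its stroma, read 114.5, 141.0 and 33.9 in MII, 962.5, 1170.4 and 934.7 in MIII and 82.7, 79.4 and 89.0 in MIV. The MIII arrays stood apart, and MII and MIV overlapped. Its log2 changes were 3.32 ± 0.31 (limma adjusted p = 8.43e-07), -3.35 ± 0.31 (limma adjusted p = 7.08e-07) and -0.02 ± 0.31 (limma adjusted p = 0.968) from MII to MIV. COL13A1, a collagen that spans the cell membrane, was the exception in this class: it read 364.1, 311.4 and 297.1 in MII, 356.2, 330.5 and 327.4 in MIII and 687.5, 618.6 and 749.6 in MIV. It was high in MIV alone, and rose by 1.04 ± 0.11 (limma adjusted p = 6.55e-06) on the log2 scale from MII to MIV. From MIII to MIV the difference of 0.98 ± 0.11 (limma adjusted p = 6.92e-06) stopped just below 2-fold. Without MII replicate 3 or MIV replicate 3 the MIV against MII value was 0.98 or 0.97, below 2-fold, and the other COL13A1 probe sets gave 0.14 and 0.45.

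Of the enzymes and the chaperone, 11 were tested and 5 rose in MIII, beside 6.17% of all genes tested. The same 5 fell in MIV, beside 7.79% of all genes tested. The prolyl 4-hydroxylases, whose hydroxyproline stabilises the helix, had small differences. P4HA1 read 2568.8, 2633.9 and 2362.2 in MII, 4058.3, 3781.2 and 3973.2 in MIII and 3308.2, 3336.0 and 3342.8 in MIV, a log2 difference of 0.64 ± 0.06 (limma adjusted p = 4.18e-07) between MII and MIII. P4HA2 had means of 2696, 3738 and 2503 in MII, MIII and MIV and differed by 0.47 ± 0.06 (limma adjusted p = 8.06e-06) and -0.58 ± 0.06 (limma adjusted p = 9.38e-07). Both were highest in MIII without reaching 2-fold, and P4HA3 had signals of 3.6 to 16.6 and was not tested.

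The lysyl hydroxylases differed from one another. PLOD2, the enzyme that hydroxylates the telopeptide lysines used in stable cross-links, read 2277.1, 2117.3 and 2266.9 in MII, 6963.4, 6862.4 and 7676.5 in MIII and 2023.4, 1955.6 and 1782.9 in MIV. Each MIII array was above all others. It rose by 1.68 ± 0.06 (limma adjusted p = 8.67e-11) on the log2 scale and fell by 1.89 ± 0.06 (limma adjusted p = 2.39e-11). PLOD3, which also adds sugars to hydroxylysine, had means of 4571, 6899 and 4376 in MII, MIII and MIV; its differences of 0.59 ± 0.05 (limma adjusted p = 2.13e-07) and -0.65 ± 0.05 (limma adjusted p = 7.1e-08) were short of 2-fold. PLOD1, which acts on helical lysines, had means of 2079, 2254 and 2124 in overlapping ranges, with a difference of 0.11 ± 0.07 (limma adjusted p = 0.181) between MII and MIII.

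Of the 5 lysyl oxidases, LOX, LOXL1 and LOXL2 rose from MII to MIII, LOXL4 was the one tested member that fell, and LOXL3 was not called. LOX, the founding member of the family, read 411.8, 281.4 and 362.0 in MII, 2865.7, 3071.9 and 3157.2 in MIII and 491.9, 400.9 and 462.2 in MIV. The MIII arrays were far above the rest, while MII and MIV overlapped. The log2 changes were 3.06 ± 0.12 (limma adjusted p = 1.16e-10) and -2.70 ± 0.12 (limma adjusted p = 3.9e-10), and the other LOX probe sets gave 2.88 and 2.86 from MII to MIII. MIV exceeded MII by 0.36 ± 0.12 (limma adjusted p = 0.0305), short of 2-fold. For that comparison the other probe sets gave 0.93 (limma adjusted p = 3.65e-05 over all probe sets) and 0.97 (limma adjusted p = 0.118 over all probe sets).

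LOXL1, which is linked to elastic fibres, read 202.1, 185.9 and 197.0 in MII, 598.2, 609.4 and 539.0 in MIII and 74.4, 117.4 and 106.7 in MIV, ending below its MII level. It changed by 1.49 ± 0.16 (limma adjusted p = 3.44e-06) and -2.37 ± 0.16 (limma adjusted p = 2.86e-08), and differed by -0.87 ± 0.16 (limma adjusted p = 0.000596) between MII and MIV. LOXL2, an oxidase that acts on collagen IV, read 767.2, 612.3 and 736.0 in MII, 2819.5, 2880.2 and 3010.3 in MIII and 1212.9, 1266.8 and 1243.2 in MIV. In contrast to LOXL1 it ended above MII, by 0.81 ± 0.08 (limma adjusted p = 2.84e-06), after changes of 2.02 ± 0.08 (limma adjusted p = 1.34e-10) and -1.21 ± 0.08 (limma adjusted p = 2.52e-08). Another LOXL2 probe set gave 2.96, -0.77 and 2.19 for MIII against MII, MIV against MIII and MIV against MII, so that it was called in the first and last.

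LOXL4, a further lysyl oxidase, ran the other way. It read 242.4, 348.3 and 331.5 in MII, 54.2, 82.9 and 20.6 in MIII and 358.9, 290.3 and 332.0 in MIV, so that MII and MIV overlapped and each MIII array was below them. LOXL4 fell by 2.29 ± 0.28 (limma adjusted p = 1.3e-05) on the log2 scale from MII to MIII and rose by 2.39 ± 0.28 (limma adjusted p = 7.77e-06) from MIII to MIV. LOXL3 had signals from 35.3 to 161.7, overlapping between all lines, and its MIV against MIII difference was -0.72 ± 0.34 (limma adjusted p = 0.0922).

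SERPINH1, the chaperone of the triple helix, read 3687.3, 2999.3 and 3102.4 in MII, 8157.9, 8552.0 and 7515.9 in MIII and 2196.2, 2248.1 and 2368.5 in MIV. No lines overlapped, and MIV was the lowest. It rose by 1.31 ± 0.08 (limma adjusted p = 6.16e-09) and fell by 1.82 ± 0.08 (limma adjusted p = 1.73e-10), and MIV differed from MII by -0.51 ± 0.08 (limma adjusted p = 9.53e-05), short of 2-fold.

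**Figure D3:**
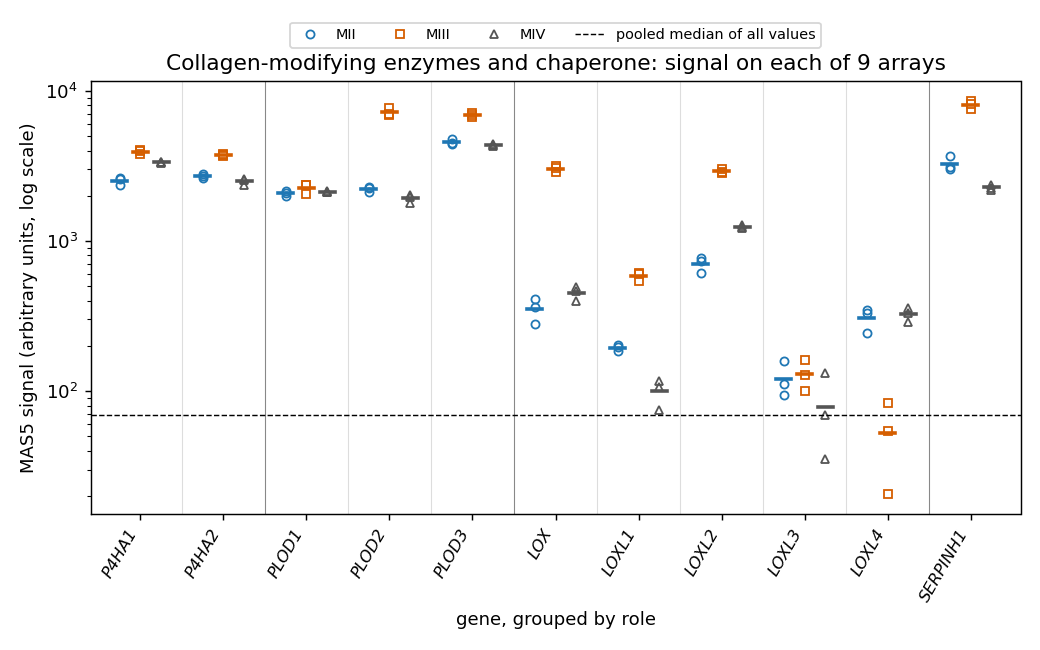
Signal of each tested hydroxylase, lysyl oxidase and the chaperone SERPINH1 on each of the 9 arrays, on a log axis, with a bar at each line's mean and a dashed line at the pooled median of 69.3. LOX, PLOD2 and SERPINH1 have their 3 MIII squares above all other arrays, LOXL4 has them below, and PLOD1 shows overlapping lines.

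The stretches before the starts of PLOD2 and LOX are shown because both genes are known targets of the hypoxia-inducible factors and both rose in MIII. They were picked from the members for these reasons, and a part of hypoxia in their rise was not tested. They are RefSeq sequence of GRCh38.p14, at chr3:146161185-146161434 and chr5:122078260-122078509 on the minus strand, and the LOX stretch precedes the most upstream of its annotated starts. Capitals mark ACGTG or GCGTG, the core letters of the hypoxia response element, on either strand.
PLOD2: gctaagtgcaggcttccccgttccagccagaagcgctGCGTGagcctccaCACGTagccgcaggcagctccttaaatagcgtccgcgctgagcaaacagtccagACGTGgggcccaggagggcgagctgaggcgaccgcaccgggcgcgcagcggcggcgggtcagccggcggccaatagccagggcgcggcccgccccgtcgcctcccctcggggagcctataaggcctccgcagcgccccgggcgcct
LOX: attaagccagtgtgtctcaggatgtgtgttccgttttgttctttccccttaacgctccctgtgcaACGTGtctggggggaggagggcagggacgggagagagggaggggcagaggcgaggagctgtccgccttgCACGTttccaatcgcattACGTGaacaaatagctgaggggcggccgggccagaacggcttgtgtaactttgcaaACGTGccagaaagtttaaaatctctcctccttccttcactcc

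The PLOD2 stretch holds 3 such cores and the LOX stretch 4. At least 1 core was found in 43.2% of all promoter windows over the same 250 bases. Over the full 300 bases, 45.0% of the member windows and 48.4% of all windows held one. The P4HA1 window held 1 core and the P4HA2 window 0, and neither gene was called. PLOD1 and COL12A1 held 2 each and were not called from MII to MIII. Among other members that rose in MIII, the SERPINH1 windows held 1 and 3, the COL18A1 windows 0 and 1 and the COL4A2 window 1. The windows of COL4A1, COL5A3, COL6A2, COL6A3, COL7A1, COL27A1 and LOXL1 held 0, and these genes also rose. Any link between cores and calls was not tested. Other letters searched were TGANTCA, the AP-1 site, in 1 of 40 member windows (2.5%) against 7.71% of all windows. TATAAA, the TATA box, was in 8 of the 40 (20.0%) against 11.5%. Some members have several windows, and COL10A1 supplied the AP-1 window and more than 1 of the TATA windows. These differences were not tested.

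Several probe sets were available for 28 of the measured members. No member had probe sets called in opposite directions in any comparison. Among probe sets that passed the filter on dim signals, the call from MII to MIII differed between probe sets of COL1A1, COL6A2 and COL27A1. From MIII to MIV it differed for these and for COL12A1 and LOXL2, and from MII to MIV for COL12A1, COL13A1, COL18A1 and LOXL2. COL6A1 had 8 probe sets, of which the 4 others that passed the filter gave log2 changes of 3.00 to 6.44 from MII to MIII. COL27A1 had a probe set at 0.86 and another at 2.37 beside the brightest at 2.93. Thus the size of a change depended on the probe set, and its direction among called values did not.

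**Figure D4:**
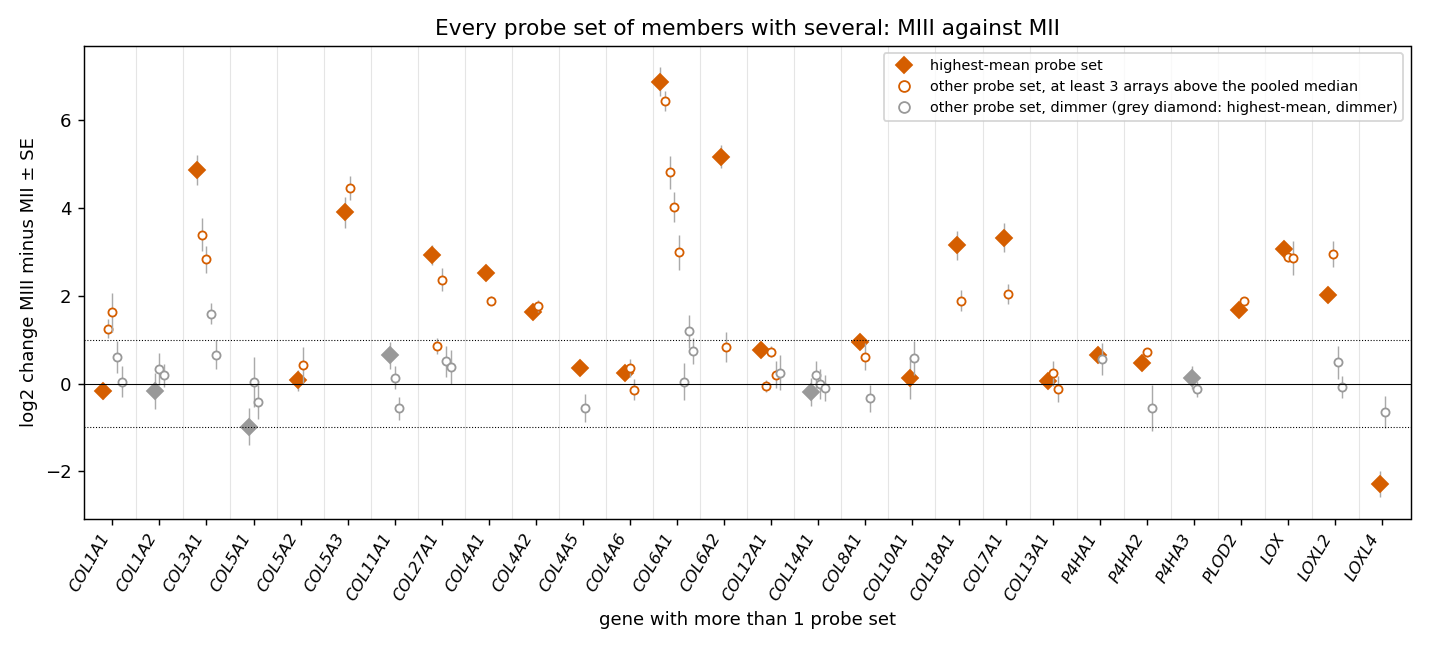
Log2 change from MII to MIII, with its standard error, for every probe set of the 28 members that have more than 1; filled diamonds are the brightest probe set of the gene, open circles the others, and grey marks dim probe sets. The brighter probe sets of COL6A1, COL3A1 and LOX all lie above the 2-fold line, whereas those of COL1A1 and COL6A2 fall on both sides of it.

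Other genes of collagen biology were read from a separate list of 61 genes, of which 59 were measured and 36 tested. In MIII against MII 12 of the 36 rose, beside 6.17% of all genes tested, and the other 24 were not called. From MIII to MIV 12 fell, beside 7.79% of all genes tested. LUM and POSTN, counted in both, passed the filter through the MIII arrays alone. From MII to MIV FN1 and SPARC rose and P3H2, a prolyl 3-hydroxylase, fell, beside 2.96% and 5.18% of all genes tested. Proteins that bind collagen in the matrix led the list. SPARC, a collagen-binding glycoprotein, had means of 33.8 ± 2.36, 13671 ± 812 and 332 ± 83.7 (SD, n = 3) in MII, MIII and MIV. FN1, the gene of fibronectin, had means of 72.0 ± 18.9, 20521 ± 1295 and 785 ± 104 (SD, n = 3). Into MIII they rose by 8.04 ± 0.14 (limma adjusted p = 1.46e-14) for SPARC and 7.85 ± 0.13 (limma adjusted p = 1.2e-14) for FN1, and neither returned fully to its MII level in MIV.

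POSTN, the matricellular protein periostin, had a mean of 1645 ± 14.9 in MIII against 18.7 ± 12.3 in MII and 2.7 ± 1.55 in MIV (SD, n = 3). Of the 8 propeptide processing genes measured, BMP1 and PCOLCE2 passed the filter, and TLL1, TLL2, PCOLCE, ADAMTS2, ADAMTS3 and ADAMTS14 were too dim to test. BMP1, the C-proteinase, rose by 1.34 ± 0.10 (limma adjusted p = 8.93e-08) and PCOLCE2, its enhancer, by 2.71 ± 0.10 (limma adjusted p = 4.75e-11) from MII to MIII. MRC2, a receptor that takes up collagen, rose by 1.35 ± 0.08 (limma adjusted p = 1.39e-08) and fell by 2.24 ± 0.08 (limma adjusted p = 6.85e-11). Of the 11 tested folding and modification genes 3 rose in MIII, P3H1, P3H4 and FKBP7, beside 6.17% of all genes tested. P4HB, the partner subunit of the prolyl 4-hydroxylases, differed by 0.16 ± 0.04 (limma adjusted p = 0.0064).

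Markers of fibroblasts, the main collagen-producing cells of breast stroma, moved with these results in part. Of 7 fibroblast markers, 3 had means above the pooled median in MII, 5 in MIII and 2 in MIV. Their summed signals were 4116.2 to 4407.0, 5146.5 to 5510.9 and 770.1 to 801.2. Single genes set much of these sums. S100A4 had a mean of 3386 in MII and 233 in MIV, and DCN one of 2511 in MIII. THY1, a surface glycoprotein, had means of 60.8, 995 and 48.0 in MII, MIII and MIV. The proteoglycan DCN, which like LUM also stands in the list of other collagen genes, read 71.5 to 79.0 in MII, 2404.2 to 2638.7 in MIII and 16.0 to 79.7 in MIV. LUM, a related proteoglycan, had means of 4.73, 197 and 12.0. THY1, DCN and LUM were called higher in MIII than in MII, as many collagens were, but THY1 and LUM passed the filter only through the MIII arrays. S100A4 fell from MII to MIII, and FAP had means of 678, 405 and 390.

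PDGFRA and PDGFRB, the receptors that define many fibroblasts, lay below the pooled median on every array of every line. The epithelial markers CDH1, EPCAM, KRT14 and CLDN7 fell from MII to MIII, and CDH1, for E-cadherin, went from 12055 to 1305. The other epithelial markers were not called. KRT8 and KRT18 differed by -0.75 and -0.65, short of 2-fold, and KRT5 by 0.03 (limma adjusted p = 0.619). From MIII to MIV, CDH1, EPCAM and CLDN7 rose to means of 7288, 18773.5 and 9825, while KRT14 fell further to 137. KRT8, KRT18 and KRT5 were again not called. PTPRC of leukocytes, CDH5, VWF and KDR of endothelium and ADIPOQ and LEP of adipocytes were below the pooled median on every array. Other markers of these types were not: CD14 of leukocytes had means of 1490, 594 and 323 in MII, MIII and MIV, CD3E had signals from 40.2 to 106.7 that overlapped in all lines, and PECAM1 of endothelium had means of 174, 251 and 306. Of the remaining adipocyte markers, LPL had means of 418, 94.6 and 31.0, and PLIN1 13.6, 96.7 and 7.73, so that PLIN1 was highest in MIII, the only line whose arrays carried it past the filter. The summed signals ran from 1541.4 to 1686.4, 639.0 to 749.1 and 392.1 to 454.0 for the 3 leukocyte markers measured, from 148.6 to 302.3, 250.7 to 343.9 and 259.0 to 368.6 for the 4 endothelial ones, and from 436.3 to 492.7, 204.6 to 253.5 and 37.9 to 76.5 for the 4 adipocyte ones. In bulk RNA, fewer cells of a type and less RNA per cell cannot be told apart, and the part of any of these cell type markers in the collagen results was not tested.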

How the data were processed

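RNA of 3 cell lines, 3 samples each, was measured on single-colour expression arrays. The deposited intensity values are linear MAS5 signals, according to the submitters' processing notes, with a version of that software not given in the sources used here. Each array's trimmed mean was near 500.1 as deposited. Of 54675 probe sets, 41091 were annotated to 1 gene. The brightest probe set per gene was kept, the filter on dim signals left 12594 genes, and log2(signal + 18.3) was fitted with limma 3.58.1 in R 4.3.3 on all 9 arrays across all genes (trended variance, 6 residual degrees of freedom, Benjamini-Hochberg adjustment). The script was tested on simulated data. An exact two-sided permutation test of 3 against 3 arrays cannot go below p = 0.1. Array signals have no read depth, and 3 arrays per line limit the precision. Every listed member was accounted for, with signals per array for those called in at least 1 comparison. Members, lists and tests were chosen with earlier results of these data known. Alternatives covered the offset, filter, scaling, probe set choice, call rule, variance trend, replicate block and each array left out. Microarray signals do not compare levels between genes.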

Additional observations from a re-analysis of the deposited data

How the results depend on the processing

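Counts of called members were recomputed under each alternative; of 38 calls, none reversed. Restricting to probe sets without a cross-hybridisation suffix left 8 members higher in MIII than in MII and 9 lower in MIV than in MIII, from 16 and 17; 6 of the 8 lost in each have no such probe set, and it left 0 higher and 0 lower in MIV against MII (5 and 5 at an unadjusted limma p under 0.05). Members higher in MIV than in MIII, 1 in the report, numbered 2 with an offset of 1, with quantile scaling and with cyclic loess, 3 by adjusted p alone, 0 with the filter at the pooled 75th percentile (2 at an unadjusted limma p under 0.05), and 1 to 3 with an array left out, COL13A1 and COL5A2 being added. Members higher in MIV than in MII, 2 in the report, numbered 0 with the pooled median as offset and 0 with the mean of all probe sets (10 in each at an unadjusted limma p under 0.05), 1 with the stricter filter, 10 by adjusted p alone and 1 to 3 with an array left out. Members lower in MIV than in MII, 1 in the report, numbered 2 with an offset of 1, which added COL6A3, 2 without a filter, which added COL5A1, 0 with the median offset and 0 with the stricter filter (6 in each at an unadjusted limma p under 0.05), 6 by adjusted p alone, and 0 to 2 with an array left out. The stricter filter left 0 lower in MIII than in MII (0 also at an unadjusted limma p under 0.05), since LOXL4 was not tested there. No pairing of the samples by replicate number was seen (same-number correlations of -0.039 to 0.039, and 3 of 9 arrays correlated best with their own number). This cannot show whether same-numbered samples were handled together. A fit with the replicate block gave 16 and 1 members in MIII against MII, 17 lower and 1 higher in MIV against MIII, and 2 and 1 in MIV against MII, as in the report. Signals near the bottom of the range set the precision of COL3A1, COL6A2 and COL6A3 in MII and MIV.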
